A study of Mus musculus with 30 samples.

Results

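Transcripts of 6 SOX genes were followed from the mouse brain into culture: Sox7, Sox17 and Sox18, which form the SoxF group, and Sox4, Sox11 and Sox9. These genes were chosen by name and not by their values, and they are 6 of 21820 protein-coding gene symbols in the data. RNA-seq was available from 14 libraries and ATAC-seq, a measure of open chromatin, from 10. Acutely isolated endothelial cells (ECs, the cells that line blood vessels) were sorted as GFP-positive cells from adult male Tie2-GFP mice, in which GFP marks ECs, and the GFP-negative brain cells of the same kind of mice formed a second group. Each had 2 RNA-seq libraries, and acute ECs also had 2 ATAC-seq libraries. WT cultures were brain ECs of adult male mice that had been purified with puromycin and grown for 8 days. Of their 6 RNA-seq libraries, replicates 1 and 2 came from C57BL/6J mice by isolation method A, and replicates 3 to 6 from Ctnnb1flex3/+;Tie2-GFP mice by method B. The study's Methods give this assignment, which is followed here. A figure legend of the study instead places only the pair sequenced at another facility, replicates 3 and 4, in method B. Replicates 3 and 4 were sequenced for 150 cycles at another facility and the other cultures for 36 cycles. Stabilized cultures came from adult male Ctnnb1flex3/+;Pdgfb-CreER;Tie2-GFP mice, in which Cre, driven by Pdgfb in ECs and switched on by 4-hydroxytamoxifen (4HT) given to pups, removes exon 3 of Ctnnb1 and so stabilizes beta-catenin, the effector of canonical Wnt signaling. Method A was used for their RNA-seq replicates 1 and 2 and method B for the other two, all at 36 cycles. Each preparation pooled the brains of several mice. The Ctnnb1flex3/+;Tie2-GFP control mice carry the conditional allele without Cre and received 4HT as well, and whether the C57BL/6J mice received 4HT is not clear from the sources used here. For ATAC-seq, WT replicates 1 and 2 were C57BL/6J cultures of method A, WT replicates 3 to 6 were Ctnnb1flex3/+;Tie2-GFP cultures of method B, and both stabilized libraries were of method B.

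SOX proteins are transcription factors that bend DNA through a conserved HMG box. The SoxF factors SOX7, SOX17 and SOX18 act together and partly redundantly in ECs, where they are known for roles in vessel growth, arterial identity and, for SOX18, lymphatic development, and SOX17 has been tied to Wnt signaling in the developing blood-brain barrier. SOX4 and SOX11 are related SoxC factors known from developing neurons and other growing cells, and SOX9 is a SoxE factor that in adult brain marks astrocytes.

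Levels are given here as CPM, counts divided by the library total after TMM scaling, which is the scale of the tests, and, where genes are compared with each other, as TPM, which divides counts by transcript length, rescaled to the same sum over nuclear protein-coding genes (rescaled TPM). Deposited TPM could not be compared between libraries, since nuclear protein-coding genes held 26.5% to 40.5% of it in sorted cells, 35.3% to 63.1% in 36-cycle cultures and 94.3% and 94.1% in WT replicates 3 and 4. Library totals ran from 24284843 to 94686456 counts. Mitochondrial genes took 10.6% to 24.2% of counts in sorted cells and 0.667% to 2.58% in cultures. The 6 EC markers (Pecam1, Cdh5, Tie1, Erg, Tek and Emcn) were all present at 1 or more rescaled TPM in every library of acute ECs and of cultures, with sums of 2543 and 2717 in acute ECs, 2249 to 8302 in WT cultures and 4431 to 8000 in stabilized cultures, against 15.1 and 48.9 in GFP-negative cells. Erythrocyte markers summed to 14739 and 77811 in acute ECs and to at most 1.56 in WT cultures. Proliferation markers (Mki67, Top2a and Ccnb1) summed to 1.24 and 8.88 in acute ECs, 10.9 to 73.8 in WT cultures and 24.1 to 71.6 in stabilized cultures, with none of the 3 at 0 in all libraries of a group and 0, 2 and 2 of them at 1 or more in every library. Their part in the changes in culture was not tested. Sorted cells were sequenced as single reads of 75 cycles from amplified cDNA and cultures as read pairs, so culture and library preparation cannot be told apart. Wells of the same experiment served as replicates in the cultures, and p-values then measure only the spread between these samples. In these bulk libraries, fewer cells of a type and less RNA per cell cannot be told apart.

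In acute ECs the 3 SoxF genes were abundant and in GFP-negative cells they were close to absent. Sox7 (chr14:63943673-63950732, GRCm38, plus strand) had 177.3 and 146.7 CPM in acute ECs and 1.78 and 0.174 CPM in GFP-negative cells. Sox17 (chr1:4490931-4497354, minus strand) had 99.6 and 88.7 CPM in acute ECs and 0.237 and 0.193 CPM in GFP-negative cells. Sox18 (chr2:181669836-181671640, minus strand) had 134.9 and 50.3 CPM in acute ECs and 0.643 and 0.0193 CPM in GFP-negative cells, where replicate 2 held 1 count. For each of the 3 genes the groups were far apart, and the wider ratio between replicates was in the GFP-negative libraries.

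A gene was called where edgeR gave a Benjamini-Hochberg adjusted p under 0.05 and an absolute log2 fold change over 1, and deposited TPM was at least 5 in every library of the higher group. By this rule 4 of the 6 SOX genes were higher in GFP-positive cells and 1 was lower, where 8.30% of 15101 tested genes were called higher and 7.56% lower. The log2 fold change was 8.78 for Sox17 (SE 0.55, edgeR adjusted p = 0.00165). It was 8.13 for Sox18 (SE 1.45, edgeR adjusted p = 0.0107) and 7.39 for Sox7 (SE 1.13, edgeR adjusted p = 0.00672), against a median of −0.06 over all tested genes. The size for Sox18 and Sox7 depended on which library was left out. With each library left out it was 7.10 to 12.09 for Sox18 (12.09 without GFP-negative replicate 1, 7.20 without replicate 2, 7.10 without acute replicate 1) and 6.54 to 9.87 for Sox7 (9.87 without GFP-negative replicate 1, 6.54 without replicate 2), and both genes were called each time.

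Sox4 (chr13:28948919-28953713, minus strand) was not restricted to ECs. It had 246.1 and 83.3 CPM in acute ECs and 32.2 and 35.3 CPM in GFP-negative cells. The acute libraries lay above the GFP-negative ones but differed from each other. The log2 fold change was 2.31 (SE 0.57, edgeR adjusted p = 0.0283), and this call was lost without acute replicate 1 (log2 fold change 1.20, adjusted p = 0.107), without GFP-negative replicate 1 (2.25, adjusted p = 0.0819) or without GFP-negative replicate 2 (2.39, adjusted p = 0.0721). With an offset for transcript length it was lost too (2.20, adjusted p = 0.0744).

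Sox9 and Sox11 were the 2 genes with more transcript outside ECs. Sox9 (chr11:112782224-112787760, plus strand) had 194 and 471.3 CPM in GFP-negative cells and 24.3 and 21.5 CPM in acute ECs, and was called lower in acute ECs (log2 fold change −3.84, SE 0.52, edgeR adjusted p = 0.00485). Without GFP-negative replicate 2 the value was −3.05, still called. Sox11 (chr12:27334264-27342574, minus strand) had 11.7 and 17.2 CPM in GFP-negative cells. In acute ECs it had 0.414 and 0.0219 CPM, which stand for 25 counts and 1 count. Its log2 fold change of −5.97 (SE 1.32, edgeR adjusted p = 0.0205) passed the test, but it was not called because its TPM in GFP-negative cells was under the minimum, and the value was −9.31 without acute replicate 1 and −5.08 without acute replicate 2. The 5 astrocyte markers (Aqp4, Gfap, Aldh1l1, Slc1a3 and Gja1) summed to 5212 and 9391 rescaled TPM in GFP-negative cells and to 215.2 and 1447 in acute ECs, with none of the 5 at 0 in all acute libraries and 3 of 5 at 1 or more in both. Their part in the Sox9 level of acute ECs was not tested. The 3 neuroblast markers (Dcx, Stmn2 and Igfbpl1) summed to 49.7 and 105.6 in GFP-negative cells and to 45.0 and 80.5 in acute ECs. All 3 were at 1 or more in both GFP-negative libraries. In acute ECs 1 of 3 was at 1 or more in both libraries and 1 was at 0 in both. The part of these markers in Sox11 and Sox4 was not tested.

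**Figure D1:**
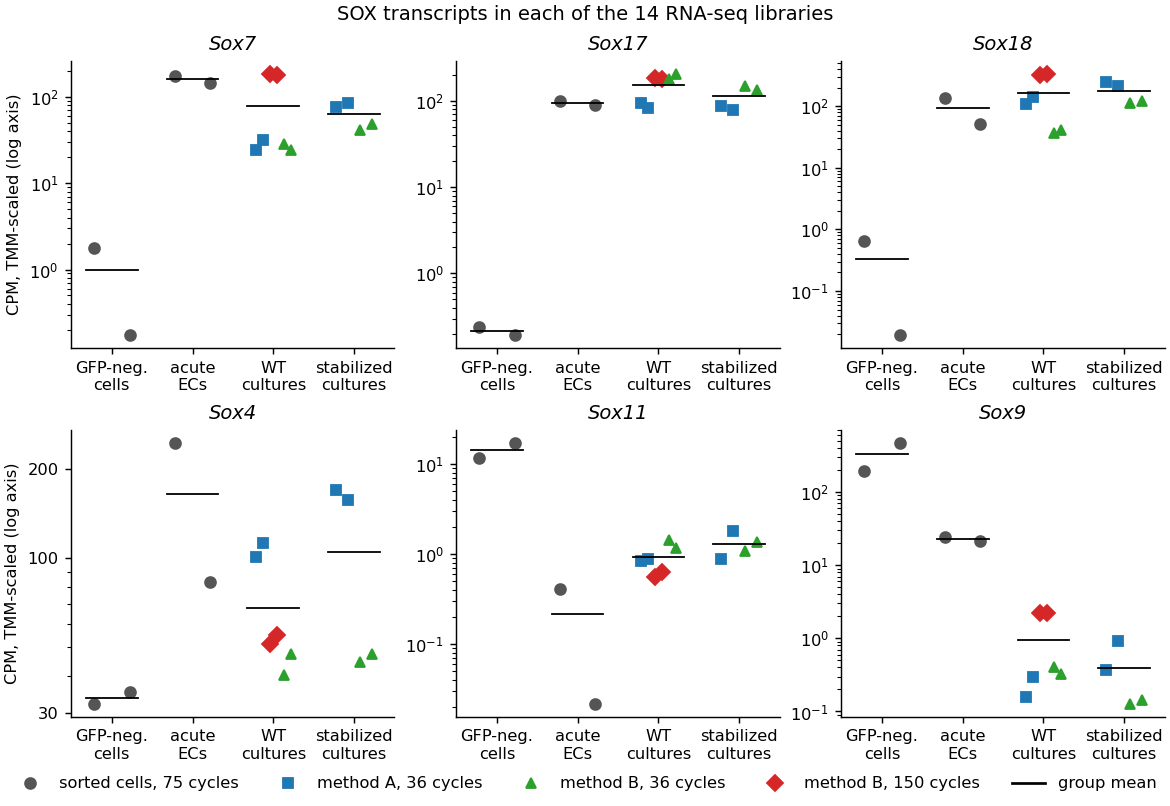
Each panel shows 1 SOX gene in CPM after TMM scaling on a log axis, with a point per RNA-seq library, a marker shape and colour per isolation method and read length, and a black line at the mean of each group. The SoxF genes are near the floor in GFP-negative cells and high in ECs, WT cultures of Sox7 and Sox18 fall into separate experiments (Sox7 from 24.4 to 184.9 CPM), and Sox9 is low in all cultures.

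On a scale per length, the order of the 6 genes in acute ECs was Sox17, Sox18, Sox7, Sox4, Sox9 and Sox11 in both libraries. Sox17 had 280.8 and 123.3 rescaled TPM and Sox18 209.6 and 84.9, so that these neighbours overlapped. Sox7 followed at 57.8 and 60.9 rescaled TPM, above Sox4 at 52.4 and 19.8, Sox9 at 6.63 and 7.02 and Sox11 at 0.0440 or less. The place of Sox17 in acute replicate 1 rests on a short transcript described further on, Sox17-203, without which Sox17 had 54.6 rescaled TPM there, below Sox18 and Sox7, and 118.1 in acute replicate 2, above both. In WT cultures the top of the order changed between experiments. Sox18 came first in replicates 1 and 2 (210.9 and 234.3 rescaled TPM against 148.7 and 111.1 for Sox17) and in replicates 3 and 4 (620.7 and 605.6 against 519.2 and 457.7). Sox17 came first in replicates 5 and 6 (289.9 and 311.9 against 56.8 and 56.6 for Sox18). Over the 6 WT libraries the ranges of Sox17 and Sox18 overlapped, as did those of Sox7 (13.2 to 98.7) and Sox4 (19.9 to 54.3) and those of Sox9 (0.0845 to 1.70) and Sox11 (0.171 to 0.443). In stabilized cultures Sox18 led at 395.8 and 375.4 rescaled TPM in replicates 1 and 2 and Sox17 led at 215.8 and 213.4 in replicates 3 and 4. Sox9 came first in GFP-negative cells, at 76.1 and 207.2 rescaled TPM, ahead of Sox4 at 10.6 and 11.8 and Sox11 at 2.36 and 3.05.

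WT cultures were compared with acute ECs to measure the effect of culture. None of the 6 SOX genes was called in either direction over all 6 WT libraries, where 13.5% of 13785 tested genes were called higher and 10.2% lower. In simulated counts with the spread of these libraries, estimated per gene, the test recovered 0% of log2 changes of 2. It recovered 87.5% of log2 changes of 4. These simulations changed 200 genes, whereas 6229 of the 13785 tested genes had an adjusted p under 0.05 in the data. The adjustment is less strict there, so the simulated shares do not give what the test could find in these data. Cldn5, for 1, was called lower at a log2 fold change of −1.97. By edgeR 2 of the 6 genes had an unadjusted p under 0.05, as had 7385 of the 13785 tested genes. DESeq2 called 1 of the 6, Sox4, and over all genes it called 1952 higher and 1654 lower. The SoxF genes stayed abundant in every culture, and their changes depended on the culture experiment. Their group medians and folds are therefore given with each experiment beside them.

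Sox7 had 24.4 and 32.2 CPM in WT replicates 1 and 2, 184.9 and 182.3 CPM in replicates 3 and 4, and 28.5 and 24.7 CPM in replicates 5 and 6. The 4 cultures of 36 cycles lay below both acute libraries, and the 2 cultures of 150 cycles lay above them. Over all WT cultures the log2 fold change was −1.05 (SE 0.87, edgeR adjusted p = 0.349). Against the same acute libraries, Sox7 was called lower in the method A cultures (−2.52, SE 0.26, edgeR adjusted p = 0.00448) and in the 36-cycle method B cultures (−2.63, SE 0.22, edgeR adjusted p = 0.00387). In the 150-cycle cultures the value was 0.16 (SE 0.20, edgeR adjusted p = 0.533). With the 4 cultures of 36 cycles together it was −2.57 (SE 0.22, edgeR adjusted p = 0.000602). In these fits 13.2%, 11.4%, 15.3% and 10.9% of tested genes were called lower, in the same order. An adjusted p under 0.05 was reached by 6539 of 13402, 6553 of 13567, 7811 of 13513 and 6508 of 13727 genes, again in that order.

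Sox17 had 94.4 and 83.5 CPM in WT replicates 1 and 2, 186.4 and 178.5 CPM in replicates 3 and 4, and 179.8 and 204.7 CPM in replicates 5 and 6. Replicates 1 and 2 overlapped the acute libraries, and the 4 cultures of method B lay above them. The log2 fold change was 0.69 over all WT cultures (SE 0.41, edgeR adjusted p = 0.194). It was −0.09 in method A (SE 0.21, edgeR adjusted p = 0.757). In method B it was 1.01 at 36 cycles (SE 0.18, edgeR adjusted p = 0.0152), which was called higher, and 0.93 at 150 cycles (SE 0.19, edgeR adjusted p = 0.0152), which was under the fold minimum. Genes called higher made up 16.1% and 21.2% of those tested in these last fits.

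Sox18 had 110.0 and 139.4 CPM in WT replicates 1 and 2, 318.1 and 329.8 CPM in replicates 3 and 4, and 36.6 and 40.4 CPM in replicates 5 and 6. It thus lay within or near the range of the acute libraries in method A, above it in the 150-cycle cultures and below it in the 36-cycle cultures of method B. The log2 fold change was 0.79 over all WT cultures (SE 0.91, edgeR adjusted p = 0.503). It was 1.69 without acute replicate 1, 0.24 without acute replicate 2, and 0.48 and 0.46 without WT replicate 3 and 4, and not called in any of these. By experiment it was 0.42 in method A (SE 0.51, edgeR adjusted p = 0.531), −1.28 in 36-cycle method B (SE 0.52, edgeR adjusted p = 0.104) and 1.78 in the 150-cycle cultures (SE 0.51, edgeR adjusted p = 0.0385), where it was called higher.

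Among the other 3 genes, Sox4 had 101 and 112.4 CPM in WT replicates 1 and 2, 51.2 and 55.0 CPM in replicates 3 and 4, and 40.2 and 47.4 CPM in replicates 5 and 6. Its log2 fold change was −1.30 (SE 0.50, edgeR adjusted p = 0.0612). Acute replicate 1 (246.1 CPM) set much of this difference, and without it the value was −0.31. Without acute replicate 2 Sox4 was called lower (−1.90, adjusted p = 0.0320), likewise without WT replicate 2 (−1.50, adjusted p = 0.0383). Sox9 was at 0.159 to 2.25 CPM in WT cultures, below both acute libraries, with a log2 fold change of −4.60 (SE 0.89, edgeR adjusted p = 0.00340). It passed the test but was not called, since its deposited TPM in acute ECs was under the minimum of 5; with the minimum set on rescaled TPM it was called lower. Astrocyte markers moved with it, from 215.2 and 1447 rescaled TPM in acute ECs to 9.52 to 48.5 in WT cultures, with 1 of 5 at 1 or more in every WT library and none at 0 in all of them, and their part was not tested. Sox11 stayed at 0.553 to 1.44 CPM in WT cultures (log2 fold change 2.01, SE 0.98, edgeR adjusted p = 0.120). This value turned on the acute libraries, at 1.09 without acute replicate 2, which held 1 count, and 5.16 without acute replicate 1 (edgeR adjusted p = 0.0121).

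**Figure D2:**
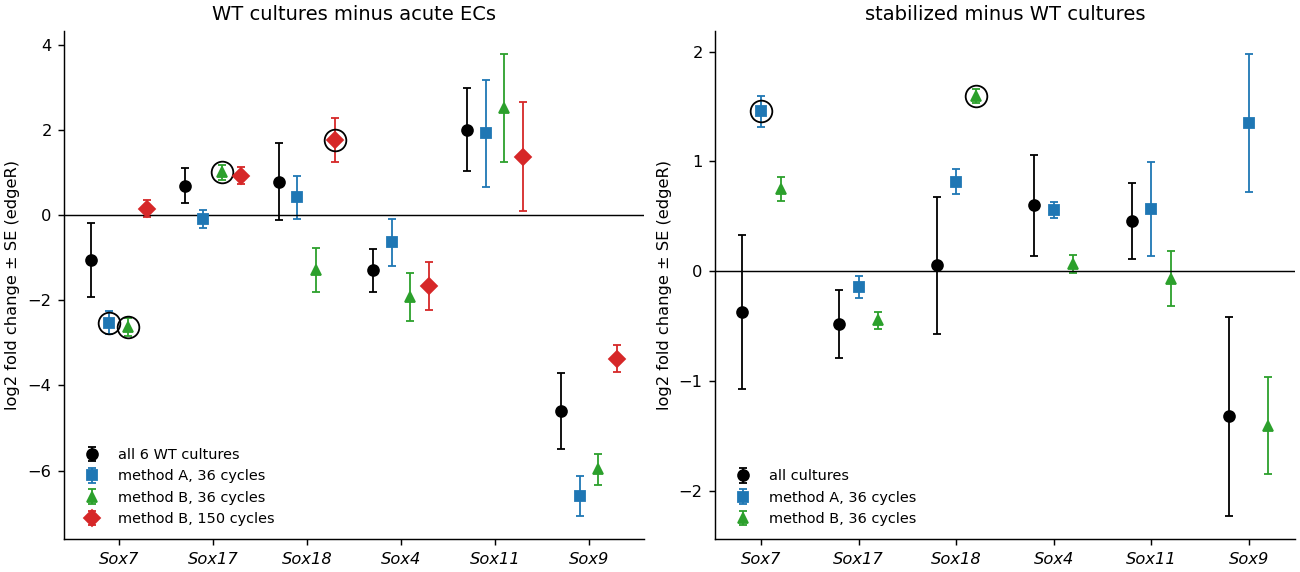
Points are edgeR log2 fold changes with bars of 1 SE for each SOX gene, on the left for WT cultures against acute ECs and on the right for stabilized against WT cultures, over all libraries (black) and by isolation method and read length (colours), with a ring around each called value. Sox7 is lower than in acute ECs in the 36-cycle cultures (−2.52 and −2.63) and not in the 150-cycle cultures (0.16), and Sox18 ranges from −1.28 to 1.78 between experiments.

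The 3 WT experiments differed by more than their wells. Between the highest and the lowest experiment mean in CPM, Sox18 differed 8.42-fold and Sox7 6.90-fold, while wells of the same experiment differed by at most 1.27-fold and 1.32-fold. For Sox4 the experiments differed 2.43-fold and for Sox17 2.16-fold, with wells within 1.18-fold and 1.14-fold. Over 9989 genes with a mean of at least 5 CPM the median gene differed 2.11-fold between the experiments. Sox18 and Sox7 lay at percentiles 93.4 and 91.0 of that distribution, and Sox4 and Sox17 at 59.0 and 51.6. For Sox18 and Sox7 the highest experiment mean was that of replicates 3 and 4 and the lowest that of replicates 5 and 6 (323.9 against 38.5 CPM for Sox18, 183.6 against 26.6 CPM for Sox7). By the study's Methods both were of method B and of Ctnnb1flex3/+;Tie2-GFP mice, whereas by its figure legend replicates 5 and 6 were of method A. Between these experiments, read length, facility and the preparation itself cannot be told apart, nor, if the legend holds, isolation method and strain. Pericyte and smooth muscle markers (Pdgfrb, Rgs5, Acta2, Tagln and Kcnj8) differed between the experiments as well. They summed to 1571 and 1091 rescaled TPM in WT replicates 1 and 2, 2217 and 2064 in replicates 3 and 4, and 7502 and 7029 in replicates 5 and 6. In stabilized cultures they summed to 767.6 and 890 in method A and 6429 and 6035 in method B, and in acute ECs to 1362 and 1318. None of the 5 was at 0 in all libraries of a group, and 5 in acute ECs, 3 in WT and 4 in stabilized cultures were at 1 or more in every library. Their part in the SOX levels was not tested.

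Salmon divided the counts of Sox17 among 8 annotated transcripts, and this division differed between libraries. Sox17-203, a coding transcript of 406 bases, took 43.8% of the Sox17 count in acute replicate 1 and 0.947% in acute replicate 2, and at most 0.909% in any culture. Without it the deposited Sox17 TPM of acute replicate 1 was 17.6 in place of 90.5, and that of acute replicate 2 was 47.8 in place of 49.9. Sox17-202, of 1512 bases, took 42.8% and 43.3% in WT replicates 3 and 4 and at most 8.12% in the other libraries. The Sox17 count, which the tests use, does not depend on this division, whereas TPM does. A noncoding gene on the opposite strand, Gm37587, overlaps Sox17 and reached a TPM of at most 0.450, and Gm26735 overlaps Sox4 and reached at most 0.532.

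**Figure D3:**
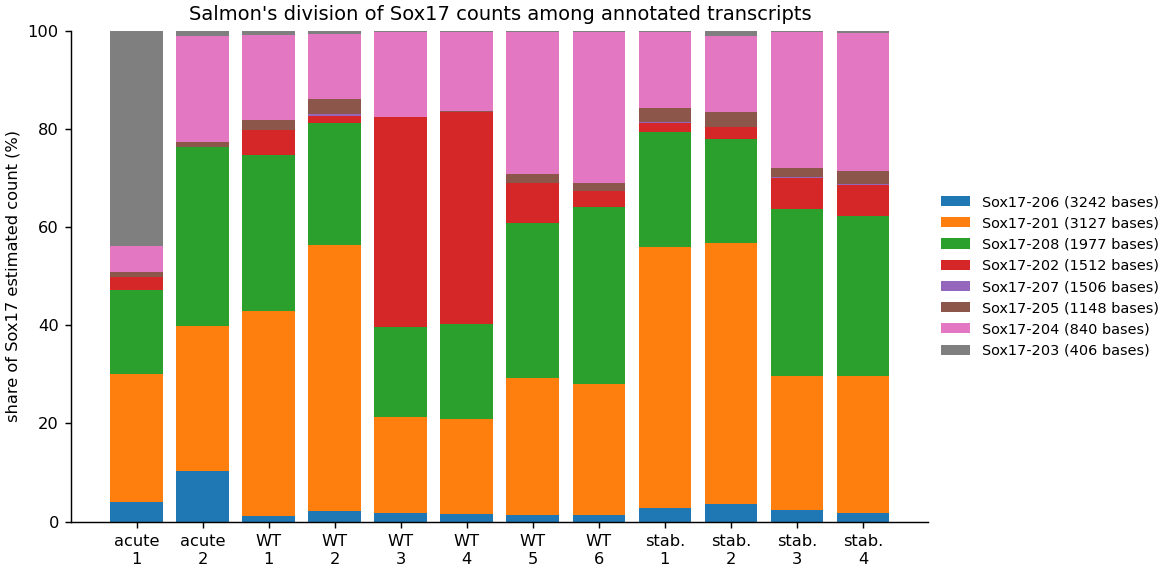
Stacked bars show the percentage of the Sox17 estimated count that Salmon gave to each annotated transcript in each EC library, with transcript lengths in bases in the key. Sox17-203 takes 43.8% in acute replicate 1 and 0.947% in acute replicate 2, and Sox17-202 takes 42.8% and 43.3% in WT replicates 3 and 4.

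Stabilized and WT cultures were compared to measure the effect of beta-catenin stabilization. Over all 10 cultures edgeR called none of the 6 SOX genes, where 0% of 12959 tested genes were called higher and 0% lower. Of all genes 1344, and of the 6 SOX genes 0, had an unadjusted p under 0.05. DESeq2 called 18 genes, the fit with isolation method as a covariate 6, and the fit with replicate number as a block 173, and none of these fits called a SOX gene. The block sets the 150-cycle WT replicates 3 and 4 beside 36-cycle stabilized cultures. The call differed once each method was fitted on its own libraries. Each of these fits compared 2 wells with 2 wells, of the same experiment within each group, so stabilization and preparation cannot be told apart. An adjusted p under 0.05 was reached by 7194 of 12849 tested genes in method A and by 4759 of 12836 in 36-cycle method B. Such values for a SOX gene in the next paragraphs were therefore common among all genes.

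In method A, Sox7 had 76.1 and 85.9 CPM in stabilized cultures against 24.4 and 32.2 CPM in WT cultures, without overlap, and was called higher (log2 fold change 1.46, SE 0.14, edgeR adjusted p = 0.000764). In that fit 5.39% of 12849 tested genes were called higher and 0.918% lower. The WT cultures of method A were of another strain than the stabilized ones, and whether they had been exposed to 4HT is not clear, so these cannot be told apart from stabilization. In 36-cycle method B, Sox7 had 41.8 and 48.3 CPM in stabilized cultures against 28.5 and 24.7 CPM in WT cultures, with a log2 fold change of 0.75 (SE 0.11, edgeR adjusted p = 0.00473), under the fold minimum. There 1.08% of 12836 tested genes were called higher and 0.288% lower. Both values were positive, whereas the 150-cycle WT cultures, at 184.9 and 182.3 CPM, lay above all stabilized cultures. The value over all cultures was −0.37 (SE 0.70, edgeR adjusted p = 0.858).

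Sox18 was the gene called in 36-cycle method B, at 113.9 and 120.0 CPM in stabilized cultures against 36.6 and 40.4 CPM in WT cultures (log2 fold change 1.59, SE 0.06, edgeR adjusted p = 0.000344). In method A it had 246.8 and 210.8 CPM in stabilized cultures against 110.0 and 139.4 CPM, with a log2 fold change of 0.82 (SE 0.12, edgeR adjusted p = 0.00191), under the fold minimum. The stabilized libraries lay above the 36-cycle WT libraries of the same method in both cases, whereas the 150-cycle WT libraries of method B, at 318.1 and 329.8 CPM, lay above all stabilized cultures. Over all cultures the value was 0.05 (SE 0.63, edgeR adjusted p = 0.980).

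Sox17 was not called in either method. In method A it had 88.5 and 79.5 CPM in stabilized cultures against 94.4 and 83.5 CPM (log2 fold change −0.14, SE 0.10, edgeR adjusted p = 0.245). In 36-cycle method B it had 149.1 and 134.9 CPM against 179.8 and 204.7 CPM (−0.45, SE 0.08, edgeR adjusted p = 0.00789), under the fold minimum. Sox4 had 170.8 and 157.4 CPM against 101 and 112.4 CPM in method A (0.56, SE 0.07, edgeR adjusted p = 0.00156). In 36-cycle method B its 44.7 and 47.5 CPM overlapped the 40.2 and 47.4 CPM of WT cultures (0.06, SE 0.08, edgeR adjusted p = 0.577). Sox11 (0.876 to 1.79 CPM) and Sox9 (0.128 to 0.906 CPM) were near the floor in all stabilized cultures.

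The difference between the methods was tested as an interaction in the 8 cultures of 36 cycles, where 49.6% of 13357 tested genes had an adjusted p under 0.05. The effect of stabilization in method B minus that in method A was −0.68 for Sox7 (SE 0.19, edgeR adjusted p = 0.0175), 0.80 for Sox18 (SE 0.16, adjusted p = 0.00341), −0.48 for Sox4 (SE 0.12, adjusted p = 0.0111) and −2.74 for Sox9 (SE 0.83, adjusted p = 0.0231), whose counts were at most 44 per library. The test for Sox7 was no longer passed without any one of WT replicate 1, stabilized replicate 2 and stabilized replicate 3, and that for Sox9 without any one of 5 of the 8 libraries. For Sox17 it was −0.28 (SE 0.14, adjusted p = 0.123) and for Sox11 −0.61 (SE 0.52, adjusted p = 0.359). The method A WT cultures were C57BL/6J and the method A stabilized cultures were not. Each combination of genotype and method was 2 wells of the same experiment, so the p-values measure only the spread between wells. Strain, method and preparation therefore cannot be told apart in this term.

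Stabilized cultures were also compared with the acute ECs that served as controls above. Sox7 was called lower (log2 fold change −1.40, SE 0.32, edgeR adjusted p = 0.00918) and no SOX gene was called higher, where 15.1% of 13889 tested genes were called higher and 11.0% lower. All 4 stabilized libraries (41.8 to 85.9 CPM) lay below both acute libraries (177.3 and 146.7 CPM). The call held in method A (−1.04, SE 0.20, adjusted p = 0.0240) and in method B (−1.91, SE 0.19, adjusted p = 0.00595) by edgeR, and was lost without acute replicate 1 (−1.25, adjusted p = 0.0519), with an offset for transcript length (−0.75, adjusted p = 0.110) and with all 14 libraries in one fit (−1.38, adjusted p = 0.232). Without acute replicate 1 Sox18 was called higher by edgeR (1.75, adjusted p = 0.0485), against 0.86 (SE 0.51, adjusted p = 0.187) with all libraries and 0.33 without acute replicate 2. Sox9 was at −5.91 (SE 0.76, edgeR adjusted p = 0.00109) and not called because of the TPM minimum. Astrocyte markers summed to 27.2 to 40.7 rescaled TPM in stabilized cultures, with 2 of 5 at 1 or more in every library. Sox17 (0.23, SE 0.30, adjusted p = 0.541), Sox4 (−0.69, SE 0.70, adjusted p = 0.420) and Sox11 (2.47, SE 1.02, adjusted p = 0.0762) did not pass the edgeR test, and Sox11 was at 1.61 without acute replicate 2 and 5.69 without acute replicate 1.

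Whether the SoxF genes changed by different amounts was tested on the log2 ratio of their TPM (pseudocount 1) with exact two-sided permutation tests, adjusted over 6 tests. From acute ECs to WT cultures the ratio of Sox7 to Sox17 changed by −1.47 (exact permutation p = 0.0714, adjusted p = 0.267) and that of Sox7 to Sox18 by −1.52 (exact permutation p = 0.107, adjusted p = 0.267). The ratio of Sox17 to Sox18 changed by −0.05 (exact permutation p = 1, adjusted p = 1). With 28 regroupings the smallest p this design allows is 0.0357 before adjustment. After adjustment over the 6 tests it would be under 0.05 only if most of the 6 had a p as small. The tests of WT cultures against acute ECs could therefore hardly pass, and they do not show that the ratios stayed the same. From WT to stabilized cultures the same ratios changed by 1.05, −0.04 and −1.10 (exact permutation p = 0.133, 0.886 and 0.286), where 210 regroupings allow a smallest p of 0.00476. None of the 6 differences passed the test, and the division of Sox17 counts described above enters the ratios with Sox17.

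Of the other SOX genes, a list of 13, the 7 with a TPM of at least 5 in every library of any group were Sox1, Sox2, Sox5, Sox6, Sox8, Sox10 and Sox13. Sox13, a SoxD factor, was the one called higher in GFP-positive cells (log2 fold change 1.88, SE 0.34, edgeR adjusted p = 0.0110), at 140.0 and 140.7 CPM in acute ECs against 35.9 and 41.6 CPM in GFP-negative cells. It was also the one called lower in WT cultures, at 34.0 to 58.7 CPM (−1.64, SE 0.27, edgeR adjusted p = 0.00167), and in stabilized cultures against acute ECs, at 39.2 to 61.8 CPM (−1.51, SE 0.23, edgeR adjusted p = 0.00209). The cultures did not overlap the acute libraries. Sox1, Sox2, Sox5, Sox6, Sox8 and Sox10, factors known from neural stem cells and the oligodendrocyte lineage, were called lower in GFP-positive cells, with Sox6 at −4.62 and Sox5 at −3.95. Over all tested genes 8.30% were called higher and 7.56% lower in GFP-positive cells, and 10.2% and 11.0% were called lower in WT and in stabilized cultures against acute ECs. Of this list 5, 9, 5 and 6 genes were tested for WT cultures, GFP-positive cells, stabilized against WT cultures and stabilized against acute ECs. Their median log2 fold changes were −1.64, −4.62, 0.12 and −1.80, against 0.10, −0.06, −0.04 and 0.04 over all tested genes. For the 6 chosen genes these medians were −0.18, 4.85, −0.16 and −0.23.

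Of 10 genes that have been described as SoxF targets in ECs, 9 were tested in each comparison. In GFP-positive cells 6 of 9 were called higher and 0 lower, against 8.30% and 7.56% of all tested genes. They were Cldn5 (9.75), a tight junction protein, Robo4 (8.87), a guidance receptor of ECs, Cdh5 (7.17), VE-cadherin, Dll4 (7.10), a Notch ligand, Kdr (6.39), a VEGF receptor, and Notch1 (1.94). Prox1 passed the test in the other direction (−4.64, edgeR adjusted p = 0.00301) but was not called because of the TPM minimum. Vcam1 (1.43) and Efnb2 (0.98) did not pass the test. In WT cultures 3 of 9 were called lower and 0 higher, against 10.2% and 13.5% of all tested genes. Kdr had 2221 and 3501 CPM in acute ECs and 119.7 to 407 CPM in WT cultures (log2 fold change −3.50, SE 0.47, edgeR adjusted p = 0.000672). Cldn5 (−1.97, SE 0.59, edgeR adjusted p = 0.0240) and Notch1 (−1.84, SE 0.54, edgeR adjusted p = 0.0214) were the others. Prox1 was lower too (−3.30, edgeR adjusted p = 0.00252) but not called because of the TPM minimum. Vcam1 (2.03), Robo4 (0.24), Dll4 (−0.28), Efnb2 (−0.47) and Cdh5 (−0.65) did not pass the test. Between stabilized and WT cultures 0 of 9 were called. Against acute ECs, stabilized cultures had 3 of 9 called lower, Kdr (−3.21), Cldn5 (−1.76) and Notch1 (−1.42), and 1 higher, Vcam1 (2.24), a leukocyte adhesion molecule, against 11.0% and 15.1% of all tested genes. There Prox1 again passed the test (−2.48, edgeR adjusted p = 0.00312) without being called, for the same reason. The median log2 fold changes of the 9 genes were 6.39, −0.65, 0.43 and 0.10 in these 4 comparisons, taken in the order given.

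The genes whose log2(TPM + 1) was most alike over the 14 libraries were, for Sox7, Lgals9 (Pearson r = 0.99), Slc16a13 (0.98) and Gpr4 (0.97), for Sox17, Thsd1 (0.98), Thbd (0.97) and Utp4 (0.97), and for Sox18, Sigirr (0.99), Ly6e (0.99) and Map3k11 (0.98). These were taken from 10689 genes, and the points share groups, wells of the same culture and the differing TPM scale. The names depended on the measure. None of them stayed among the first 3 with Spearman's rank correlation or with the 10 cultures alone. For Sox7, Sox17 and Sox18, 1, 0 and 1 of the 3 stayed with CPM and 2, 1 and 3 with rescaled TPM. Between the SoxF genes themselves r was 0.94 for Sox7 and Sox18, 0.90 for Sox17 and Sox18 and 0.86 for Sox7 and Sox17 over 14 libraries, and 0.94, 0.52 and 0.70 over the 10 cultures.

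Open chromatin was read from peaks with a fold enrichment over 2 and a −log10 q over 2, joined into 125880 regions over the 10 ATAC-seq libraries. Fold enrichment is the height of a peak over its local background. It was not normalized between libraries, and filtered peaks numbered 31601 to 37211 in acute libraries and 33032 to 98603 in cultures, so presence and fold enrichment are described here without a test. Within 50 kb of the genes there were 18 regions for Sox7, 16 for Sox17, 15 for Sox18, 9 for Sox4, 9 for Sox11 and 5 for Sox9. Of these, 6, 4, 4, 3, 0 and 1 were open in all 10 libraries, which 13.4% of all regions were.

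The start of each SoxF gene was open in both acute libraries and in most cultures. The region over the Sox7 start had a fold enrichment of 14.7 and 13.8 in acute ECs and of 7.61 to 11.6 in the 8 cultures. At Sox17 the region over the start of its shorter transcripts (chr1:4492998-4493927) had 12.9 and 13.4 in acute ECs and 5.40 to 7.44 in the cultures. The Sox18 start had 6.84 and 6.96 in acute ECs and 2.86 to 5.21 in 7 of 8 cultures. At these 3 regions both acute libraries were above every culture. Sox17 had 2 weaker regions at its annotated start, where the groups overlapped. The one over the start itself (chr1:4497345-4497673) had 2.24 and 2.98 in acute ECs and 2.42 to 3.14 in 6 of 8 cultures, and the one 0.793 kb into the gene (chr1:4496353-4497068) had 3.26 and 2.47 in acute ECs and 2.24 to 2.73 in the same 6 cultures. Neither had a peak in WT replicates 1 and 2. The Sox9 start was open in all 10 libraries as well, at 9.59 and 7.53 in acute ECs and 4.77 to 12.95 in the cultures, although its transcripts were at most 2.25 CPM there. The Sox4 start had 11.6 and 10.4 in acute ECs and 4.34 to 8.46 in the cultures, and the region 0.193 kb before the Sox11 start was open in 1 acute library at 2.99 and in all 8 cultures at 4.86 to 9.34.

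Away from the starts, 1 of the 72 regions near the 6 genes was open in both acute libraries and in no WT culture, against 2.92% of all regions. It lay 34.9 kb upstream of Sox7 (chr14:63908176-63908998), in an intron of Pinx1, with a fold enrichment of 10.9 and 8.61 in acute ECs and no peak in any of 8 cultures. A region 21.1 kb upstream of Sox17 (chr1:4518056-4518798), between genes, had 7.90 and 7.21 in acute ECs and a peak of 2.84 in 1 WT culture, replicate 4. Regions 46.9 kb upstream and 25.9 kb downstream of the Sox17 start were open everywhere, at 18.9 and 16.6 and at 17.5 and 17.1 in acute ECs against 4.52 to 8.24 and 4.84 to 11.4 in the cultures.

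Regions open in every WT culture and in no acute library numbered 3 near Sox7 and 1 near Sox18, against 8.11% of all regions, and each was open in both stabilized libraries too. The Sox7 region 26.3 kb upstream of the start (chr14:63917064-63917828), in an intron of Pinx1, had a fold enrichment of 5.17 to 18.5 in the 8 cultures. The Sox7 region 39.5 kb beyond the start had 4.59 to 9.11, and the one in the gene's last exon, 4.98 kb beyond the start, had 3.46 to 5.95. The Sox18 region 1.83 kb upstream (chr2:181673339-181673828) had 2.75 to 3.93. Near Sox17 no region had this pattern, but one 36.8 kb upstream was open in 7 of 8 cultures at 4.93 to 17.4 and in no acute library. Regions open in no acute library but in some or all WT cultures made up 61.1% of those near Sox7, 50.0% near Sox17 and 53.3% near Sox18, against 68.0% of all regions.

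**Figure D4:**
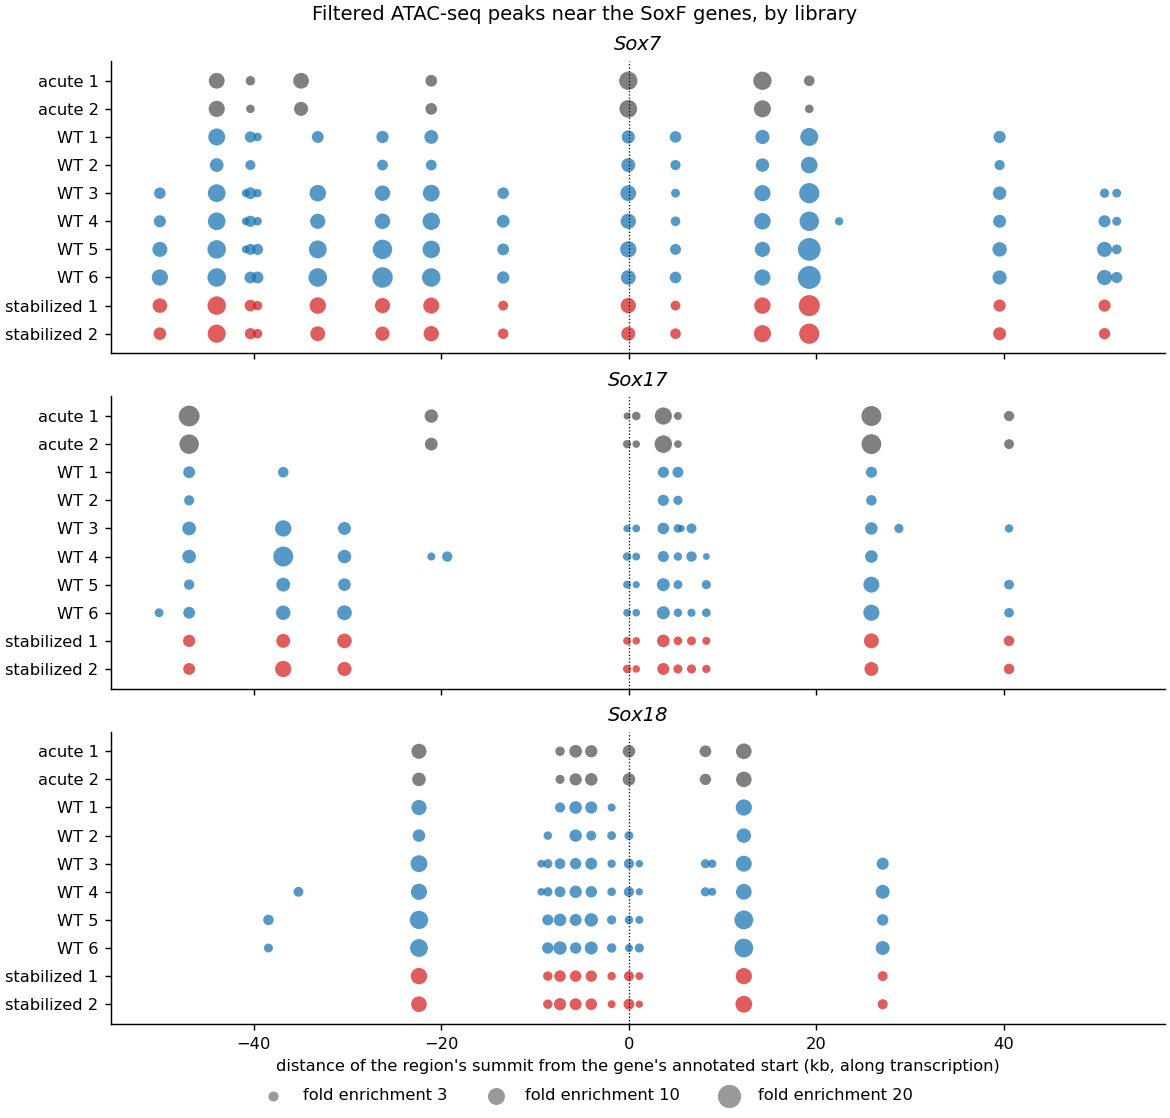
For each SoxF gene, circles mark filtered ATAC-seq peaks by library (rows) and by the distance of the region's summit from the annotated gene start in kb along transcription, with an area in proportion to fold enrichment. The region 34.9 kb upstream of Sox7 shows circles in the 2 acute libraries (10.9 and 8.61) and none in the 8 cultures, and the one 26.3 kb upstream shows the opposite.

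Windows of 300 bases on the summits of the 3 upstream regions are printed below from GRCm38 (plus strand) as examples of regions that differ in presence between acute ECs and cultures. The first follows from a rule, open in both acute libraries and in no WT culture, and the other two were chosen after their values were seen. The second, near Sox17, has a peak in 1 WT culture, and the third has the highest fold enrichment of the 4 regions open in every WT culture and in no acute library. Capitals mark matches on either strand to short motifs: ACAAT and ACAAAG for SOX factors, ATCAAAG and TTCAAAG for TCF/LEF factors, the partners of beta-catenin, CAGGAA and CCGGAA for ETS factors, and TGAGTCA for AP-1.
Sox7 acute-only region (chr14:63908583-63908882): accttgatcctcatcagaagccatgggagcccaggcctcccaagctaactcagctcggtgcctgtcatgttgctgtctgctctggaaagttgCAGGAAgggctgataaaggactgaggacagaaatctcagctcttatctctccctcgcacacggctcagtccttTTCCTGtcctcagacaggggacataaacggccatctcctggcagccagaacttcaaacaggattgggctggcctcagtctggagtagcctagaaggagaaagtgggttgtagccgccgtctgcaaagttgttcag
Sox17 acute region (chr1:4518259-4518558): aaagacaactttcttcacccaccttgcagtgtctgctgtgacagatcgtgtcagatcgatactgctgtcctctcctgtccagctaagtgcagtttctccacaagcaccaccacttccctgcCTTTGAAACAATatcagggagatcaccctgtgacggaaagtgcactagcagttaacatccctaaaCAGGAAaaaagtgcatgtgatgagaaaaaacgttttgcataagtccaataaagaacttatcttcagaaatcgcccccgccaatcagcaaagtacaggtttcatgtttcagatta
Sox7 culture-only region (chr14:63917264-63917563): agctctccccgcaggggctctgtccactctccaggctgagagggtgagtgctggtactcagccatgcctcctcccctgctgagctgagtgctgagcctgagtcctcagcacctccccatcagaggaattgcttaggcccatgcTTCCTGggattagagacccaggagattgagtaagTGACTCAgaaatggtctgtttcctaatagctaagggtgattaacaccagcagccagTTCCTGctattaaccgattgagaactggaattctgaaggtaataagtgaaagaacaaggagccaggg

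The acute-only window of Sox7 held 2 CAGGAA matches and no match to the SOX, TCF/LEF or AP-1 letters. The Sox17 window held 1 TTCAAAG match directly beside 1 ACAAT match and 1 CAGGAA match. The culture-only window of Sox7 held 2 CAGGAA matches and 1 TGAGTCA match. Of windows of the same length on all 125880 regions, 54.8% held a SOX match, 11.4% a TCF/LEF match, 51.9% an ETS match and 21.6% an AP-1 match. Single SOX and ETS matches are thus common, and AP-1 and TCF/LEF matches less so, with TTCAAAG in 7.06% of windows. A match is a description of the letters and not a site of binding.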

How the data were processed

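RNA-seq of 14 libraries and ATAC-seq of 10 libraries were analysed. The authors quantified reads with Salmon 0.14.0 on GENCODE transcripts with bias models, and deposited, for 140198 transcripts, the effective length in bases, the TPM and the estimated count. In the sorted cells the deposited data combine cerebrum and cerebellum. ATAC-seq reads were aligned by the authors to GRCm38 (HISAT2 2.1.0), duplicates were removed (Picard) and peaks were called per library (MACS2 2.1.2). Their deposited peak lists give a score, a fold enrichment, a −log10 p and a −log10 q. Cerebrum samples, which have no file of their own, were not analysed here.

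Estimated counts and TPM were summed over transcripts for each gene and the counts rounded to whole numbers. For 27 symbols with more than 1 identifier the most abundant was used. Counts of 21820 protein-coding symbols were filtered with filterByExpr, scaled by TMM and tested by quasi-likelihood (glmQLFit and glmQLFTest of edgeR 4.0.16, R 4.3.3), each comparison on its own libraries, and adjusted by the Benjamini-Hochberg method. Calls required an adjusted p under 0.05, a log2 fold change beyond 1 in size, and TPM not under 5 in any library of the higher group. SE was taken from the fold change and the F statistic. Alternatives included DESeq2 1.42.0, other scalings, a length offset and leaving out each library. Ratios were tested with scipy 1.17.1. The procedure was tested on simulated counts with 200 changed genes, without the TPM minimum. With the spread estimated per gene, it recovered 0% of log2 changes of 2 for WT cultures against acute ECs. For GFP-positive cells, stabilized against WT cultures and stabilized cultures against acute ECs it recovered 9.5%, 75% and 62.5%. Log2 changes of 4 were recovered at 87.5%, 76.5%, 98.5% and 98.5%, in the same order. In the data 6229, 4477, 0 and 7872 genes had an adjusted p under 0.05, again in this order. The adjustment therefore differs from that in the simulation, and these shares do not carry over to the data. Precision was taken from the spread between libraries, and intervals of counting error were not computed. Counting error is large where counts are few. This holds for Sox11 in acute ECs (25 counts and 1 count), Sox18 in GFP-negative replicate 2 (1 count) and Sox9 in 36-cycle cultures (3 to 44 counts).

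Same-numbered stabilized and WT libraries deviated together (r = 0.216, 0.255, 0.215 and 0.241 over 14850 genes). In both groups replicates 1 and 2 were of method A and replicates 3 and 4 of method B. A pairing of libraries therefore cannot be told apart from the shared method, and the main fits used no block. In the other comparisons r was −0.03 to 0.06. The 6 genes, the lists of other SOX genes and SoxF targets and the tests were chosen with earlier results of these data known. Named genes were the 6 members, the other SOX genes above the TPM minimum in all libraries of a group, tested SoxF targets and the 3 genes most alike to each SoxF gene. ATAC-seq peaks that shared 1 base or more were joined into regions. Sequence windows were read from the GRCm38 genome. Promoter sequences of Sox7, Sox17, Sox18 and Sox9 and protein sequences were not used here.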

Additional observations from a re-analysis of the deposited data

Results flagged for a closer look

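An edgeR test of the interaction of beta-catenin stabilization with isolation method was passed by 4 of the 6 genes, and by 49.6% of all tested genes. The 4 genes thus do not stand out from the rest. The WT cultures were C57BL/6J in method A and Ctnnb1flex3/+;Tie2-GFP in method B, and each combination of genotype and method was 2 wells of the same experiment. Strain, method and preparation therefore cannot be told apart in this term. The effect in method B minus that in method A, on the log2 scale, was −0.68 for Sox7, 0.80 for Sox18, −0.48 for Sox4 and −2.74 for Sox9. Leaving out 1 library ended the result for Sox7 in 3 of 8 cases and for Sox9 in 5 of 8. Among cultures of 36 cycles, the log2 fold change of Sox7 was 1.46 in method A (called) and 0.75 in method B (not called), and that of Sox18 was 0.82 in method A (not called) and 1.59 in method B (called). The 150-cycle WT cultures of method B did not enter this test and lay above all stabilized cultures for both genes. Sox9 had 3 to 44 counts in these 8 libraries. Of 12 groups of 4 to 10 libraries that were searched for a library far from the others, none was marked.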

How the results depend on the processing

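The number of the 6 genes called in WT cultures against acute ECs, 0 at first, was 1 with RLE scaling or DESeq2 (Sox4), with no TPM minimum or the minimum on rescaled TPM (Sox9), with 36-cycle or method A cultures or with a replicate block (Sox7) and with 150-cycle cultures (Sox18), 2 with 36-cycle method B (Sox7 and Sox17), and 0 to 1 with each library left out. For stabilized against WT cultures it was 1 with method A (Sox7) or 36-cycle method B (Sox18), where 5.39% and 1.08% of all tested genes were called higher. For stabilized cultures against acute ECs, 1 at first, it was 0 with a length offset or all 14 libraries in one fit, and 2 with no TPM minimum, the rescaled minimum (Sox7 and Sox9) or a replicate block (Sox7 and Sox18). Of all 13889 genes, 3408 were called higher and 3210 lower with no TPM minimum, and 2512 and 1984 with the rescaled one. The block gave 1895 and 1367, and the length offset 1990 and 2031. The numbers do not pair libraries with acute ECs. Acute ECs have only replicates 1 and 2, so the fold change of a replicate block rests on culture replicates 1 and 2, those of method A. The cause of the other differences was not tested.

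Directions turned in log2 fold changes that were not called in the main fits. Among the turned values, that of Sox7 in method A, for stabilized against WT cultures, was called higher. For WT cultures against acute ECs these were Sox7 (0.16, 150-cycle), Sox17 (−0.084 with a replicate block, −0.086 in method A) and Sox18 (−0.19 in 36-cycle cultures, −1.28 in 36-cycle method B). For stabilized against WT cultures these were Sox7 (1.16 in 36-cycle cultures, 1.46 in method A, 0.75 in 36-cycle method B, −0.61 to 0.047 with each library left out), Sox18 (−0.064 with library size, −0.29 with a length offset, −0.34 with a replicate block, −0.20 to 0.35 with each library left out), Sox11 (−0.066 in 36-cycle method B) and Sox9 (0.33 in 36-cycle cultures, 1.35 in method A). For stabilized cultures against acute ECs these were Sox17 (−0.45 with a length offset, −0.20 with a replicate block, −0.21 in method A) and Sox4 (0.22 with a length offset, 0.16 with a replicate block, −1.25 to 0.31 with each library left out). The replicate block changed no other call of the 6 genes.

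With each library left out the interaction was −0.88 to −0.52 for Sox7, −3.30 to −1.94 for Sox9 and −1.05 to 0.0091 for Sox11, and Sox7 lost significance without WT replicate 1 or stabilized replicate 2 or 3, and Sox9 without WT replicate 1 or 5 or stabilized replicate 2, 3 or 4. The change in the ratio of Sox17 to Sox18 was 0.14 with CPM and −0.45 to 0.24 with each library left out (WT cultures), and that of Sox7 to Sox18 −0.23 to 0.15 (stabilized cultures).

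Regions open in both acute libraries and no WT culture, 1 at first, were 3 with fold enrichment over 4 or an overlap of at least 50% of the region, 0 within 10 kb, 5 within 100 kb, and 1 to 2 with each library left out (2 without WT replicate 4). Regions open in every WT culture and no acute library, 4 at first, were 2 with the larger overlap or 10 kb, 8 within 100 kb, and 4 to 8 with each library left out (8 without WT replicate 2). Regions open in both acute and all WT libraries, 18 at first, were 7 with the larger overlap and 11 within 10 kb.

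The rescaled TPM minimum, the alternatives of the interaction and 2 scales for likeness were added after seeing the data. Over all genes, calls for GFP-positive cells fell from 2395 to 1543 with a length offset, and those for WT cultures were 2105 with wells of an experiment summed, 4931 with 150-cycle cultures and 5985 with no TPM minimum. Those for stabilized against WT cultures were 810 in method A and 175 in 36-cycle method B. A gene that was not called is not shown to be equal between the groups.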
